A study of Homo sapiens with 8 samples.

Results

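Lysosomes are the acidic compartments in which cells break down proteins, lipids and sugar chains, and autophagy is the route that wraps portions of the cytoplasm in a membrane and delivers them there. The 51 genes described here belong to that system: 3 transcription factors of the TFEB family, 26 lysosomal genes and 22 autophagy genes. Among the lysosomal genes are 3 for membrane proteins, 7 for cathepsins, 8 for glycosidases and 8 for the V-ATPase, the pump that acidifies the lysosome. The autophagy genes divide into 3 of the kinase complex that starts the process, 3 of the lipid kinase complex (PI3K complex), 4 that supply membrane, 6 of the conjugation machinery, 3 of the ATG8 family and 3 cargo receptors. Each gene was represented by a probe set, a group of probes reported as 1 value, that carries that gene's symbol and no other. Where a gene had several, the one with the highest mean stood for it, which among these genes applied to NEU1 alone. All 51 listed genes were measured, out of 18417 genes in all.

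RNA came from A2780, an established human ovarian carcinoma line, and from A2780CP20, a derivative that is known as a cisplatin-resistant subline although the labels give only its name. There were 4 groups with 2 arrays each: A2780 without treatment, A2780CP20 without treatment, A2780 exposed to temsirolimus over 24 h, and A2780 exposed to it over 48 h. All cells grew in RPMI medium with fetal bovine serum, the drug was kept in DMSO, and neither its dose nor a vehicle control is given in the sources used here. Values are log2 intensities, so a difference of 1 is a doubling. Whether the arrays of a group came from separate cultures is not in the labels; if they did not, the p-values reflect technical spread alone.

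The kinase complex mTORC1 is switched on at the lysosome's surface when amino acids are plentiful. There it phosphorylates TFEB and TFE3, which holds them in the cytoplasm, and ULK1, which restrains autophagy. Temsirolimus is an ester of rapamycin that inhibits mTORC1. In the nucleus, the TFEB family binds a short motif built around the letters CACGTG in the promoters of lysosomal and autophagy genes. TFEB is regulated mainly through its location, so the level of its own RNA does not measure its activity. Where TFEB lay in these cells, and whether temsirolimus moved it, was not measured.

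The arrays labelled 24 h stood apart from the other 6. Over all genes they correlated with those at 0.950 to 0.952, whereas pairs among the other groups lay between 0.979 and 0.996. For the 51 genes, the median absolute difference between arrays of the same group was 0.05 to 0.15, and between an array labelled 24 h and any other array it was 0.35 to 0.44. Some marker genes differed there too. The mean of 7 fibroblast markers was 9.41 to 9.50 in untreated A2780 and at 48 h, 8.93 to 9.02 in A2780CP20, and 7.24 to 7.30 on the arrays labelled 24 h. Above the array median on both arrays were 6 of the 7 in untreated A2780 and at 48 h, 5 in A2780CP20 and 3 under the 24 h label. Of these 7, COL1A2, DCN, LUM, FAP and PDGFRB were lower there than on every other array, COL1A2 reading 6.61 and 6.57 against 11.57 to 12.01. POSTN was higher, at 12.14 on both against 8.47 to 9.83, and COL1A1, at 8.02 and 7.96, lay within the range of the others. The keratin KRT18 read 10.55 and 10.48 there and 6.95 to 7.61 elsewhere, whereas KRT8 (6.65 and 6.71 against 6.23 to 6.61) and KRT19 (6.56 and 6.51 against 6.23 to 6.63) were close to the other arrays. The mean of 9 leukocyte markers was 5.20 to 5.45 on every array, and 6 of the 9 lay above the lower quartile (5.03 to 5.13) on both arrays of every group. TYROBP was the highest of them, at 6.55 to 7.23, while PTPRC (3.84 to 4.54) and LYZ (3.19 to 3.69) lay below that quartile on every array. Of 10 ovarian carcinoma and Müllerian epithelium markers, 1 or 2 lay above the array median on both arrays of a group, and CDH1 (5.19 to 5.76) lay below it on all 8. EPCAM, also on that list, read 7.67 and 7.80 on the arrays labelled 24 h and 5.26 to 5.68 elsewhere. Whether the arrays hold the cells and treatment on their labels was not tested for any group. Results that use the arrays labelled 24 h are given under that label.

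Because the TFEB family acts through CACGTG, promoter sequences of the lysosome and autophagy genes were read from RefSeq (GRCh38.p14) as windows of 300 bases, 250 before the gene's start and 50 after it. A window was matched for 40 of the 51 genes, the first one listed for each, so other start sites were not read. Among genes whose window holds the motif, 6 were called in 2 comparisons, more than any other. The 5 of these with the largest differences are shown (the sixth is GAA), each written on the gene's own strand with CACGTG in capitals. CTSF lies at chr11:66568557-66568856 (minus strand), LAMP1 at chr13:113296989-113297288 (plus strand), CTSD at chr11:1763878-1764177 (minus strand), ATG3 at chr3:112561913-112562212 (minus strand) and ATP6V0D1 at chr16:67481108-67481407 (minus strand).
CTSF: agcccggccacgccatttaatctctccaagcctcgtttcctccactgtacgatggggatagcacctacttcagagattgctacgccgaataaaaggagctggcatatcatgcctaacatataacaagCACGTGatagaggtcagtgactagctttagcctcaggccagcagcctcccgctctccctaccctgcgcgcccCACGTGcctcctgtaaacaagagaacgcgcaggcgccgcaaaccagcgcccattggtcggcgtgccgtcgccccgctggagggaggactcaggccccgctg
LAMP1: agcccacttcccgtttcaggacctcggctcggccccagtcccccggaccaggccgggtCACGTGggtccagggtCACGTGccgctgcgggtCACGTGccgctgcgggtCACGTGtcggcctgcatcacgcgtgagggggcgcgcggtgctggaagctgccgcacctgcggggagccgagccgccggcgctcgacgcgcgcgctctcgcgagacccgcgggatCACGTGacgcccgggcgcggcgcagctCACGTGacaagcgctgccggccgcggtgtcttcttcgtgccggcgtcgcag
CTSD: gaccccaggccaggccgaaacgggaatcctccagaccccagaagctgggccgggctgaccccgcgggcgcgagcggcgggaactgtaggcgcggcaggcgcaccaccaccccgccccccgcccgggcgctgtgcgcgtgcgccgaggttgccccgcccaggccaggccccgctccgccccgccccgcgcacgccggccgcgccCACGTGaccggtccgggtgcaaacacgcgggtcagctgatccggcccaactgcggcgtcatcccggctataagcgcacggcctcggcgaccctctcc
ATG3: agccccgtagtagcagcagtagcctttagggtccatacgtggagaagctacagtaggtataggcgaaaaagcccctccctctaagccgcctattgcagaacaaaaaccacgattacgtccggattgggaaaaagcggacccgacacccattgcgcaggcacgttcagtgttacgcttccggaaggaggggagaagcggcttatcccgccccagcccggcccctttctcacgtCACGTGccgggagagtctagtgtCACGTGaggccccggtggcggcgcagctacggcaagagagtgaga
ATP6V0D1: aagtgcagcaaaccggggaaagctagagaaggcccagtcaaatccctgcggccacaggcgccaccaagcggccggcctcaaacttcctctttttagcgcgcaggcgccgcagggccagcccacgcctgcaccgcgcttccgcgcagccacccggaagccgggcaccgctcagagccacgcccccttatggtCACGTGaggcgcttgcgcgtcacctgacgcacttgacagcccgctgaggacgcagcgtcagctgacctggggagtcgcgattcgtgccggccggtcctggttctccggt
LAMP1 carried 6 copies, CTSF and ATG3 carried 2 each, and CTSD and ATP6V0D1 carried 1 each. The copy nearest the start lay 1 base before it in LAMP1, 51 before it in CTSF, 47 before it in CTSD and 59 before it in ATP6V0D1, whereas ATG3 had a copy 18 before and another 5 after the start.

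CACGTG was present in 10 of the 40 windows (25%), against 8.88% of the 14239 promoters of genes tested and 7.43% of all 27305 promoters in the table. The genes with it were ATG3, ATG14, ATP6V0D1, CTSA, CTSD, CTSF, GAA, LAMP1, MCOLN1 and NEU1. The longer form CACGTGA, read as TCACGTG on the other strand, occurred in the same number of windows, 10, against 4.80% of promoters of genes tested. TCACGTGA, which contains the shorter forms and reads alike on both strands, was in 6 windows (15%) against 1.47%. CATGTGA, with TCACATG on the other strand, was in 0 of 40 against 2.63%. The windows of these genes were also richer in G and C, with a median of 68.2% against 63.0% for genes tested. The motif was looked for because it is known from promoters of lysosomal and autophagy genes, and the difference in shares was not tested. A match describes the letters in the window and is not evidence of binding.

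The 51 genes moved differently in the comparisons made, in which a gene was called when its limma p, adjusted over all 18417 genes, was under 0.05. In A2780CP20, 16 were called against untreated A2780, 2 higher and 14 lower. On the arrays labelled 24 h, 29 were called, 17 higher and 12 lower, and at 48 h none was called. The background differed greatly. Among all genes, 18.4% were called in A2780CP20 (6.37% higher, 12% lower), 30.1% on the arrays labelled 24 h (14.9% higher, 15.3% lower) and 0.179% at 48 h (0.163% higher, 0.0163% lower). The corresponding shares of the 51 genes were 31.4%, 56.9% and 0%. Median changes of the 51 were -0.19, -0.06 and 0.00, beside 0.03, 0.01 and -0.03 over all genes. Genes of higher level were called more often in general. Among 4121 genes with a mean level between 8.22 and 9.77, 32.4% were called in A2780CP20 and 46.4% on the arrays labelled 24 h, while of the 25 lysosome and autophagy genes in that range 36% and 60% were. These comparisons share the untreated A2780 arrays, so their errors are linked and the values are set side by side only. In extracts of whole cultures, fewer cells of a type and less RNA per cell cannot be told apart.

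**Figure D1:**
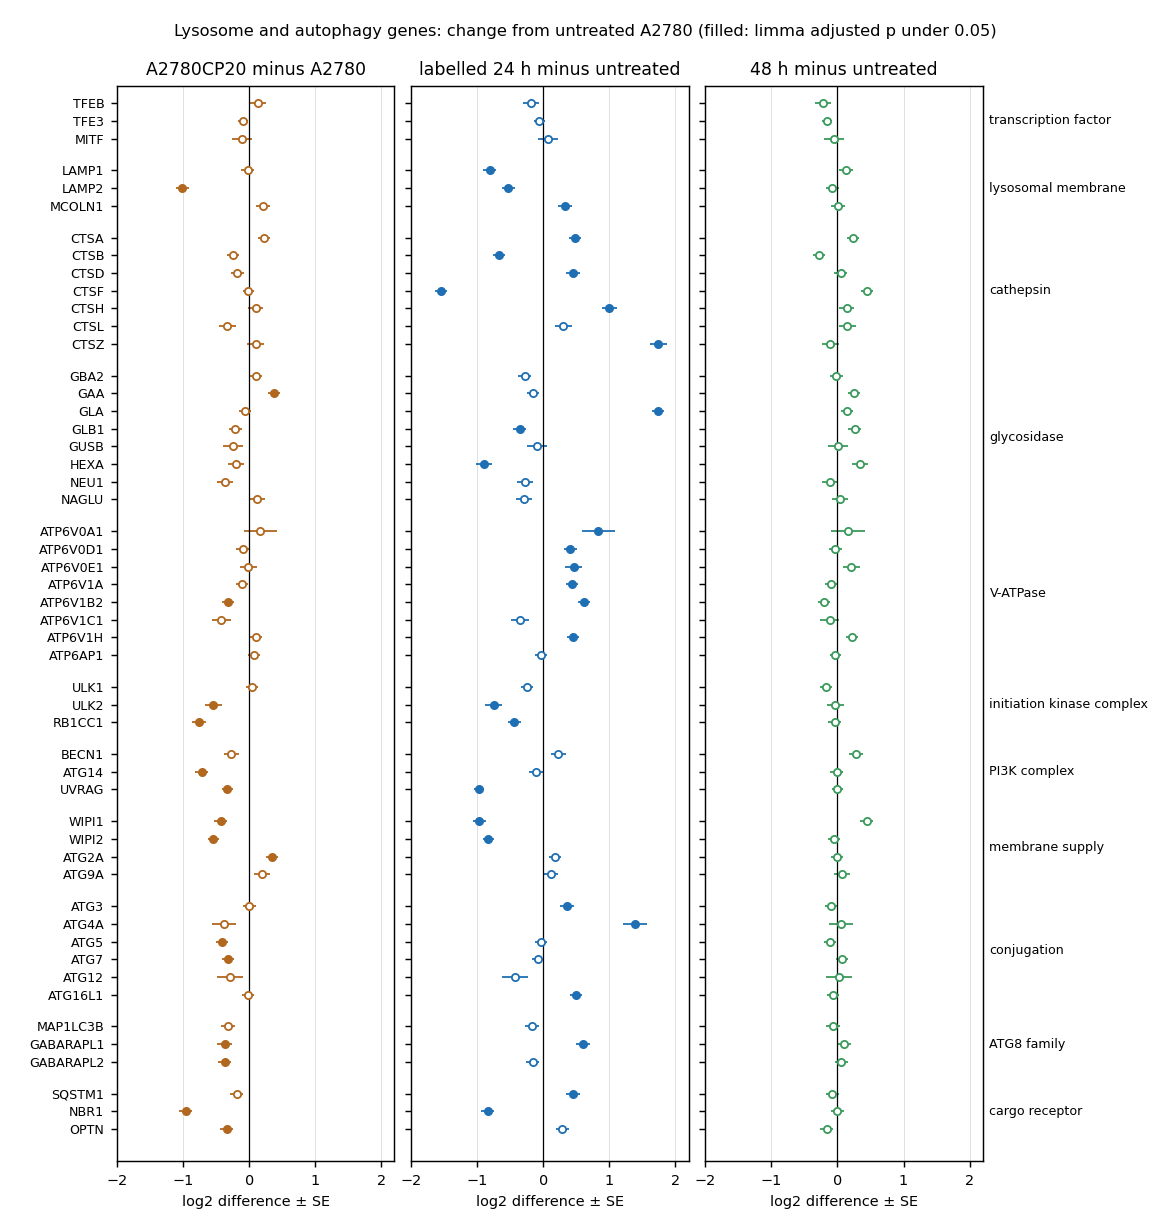
Change of each of the 51 lysosome and autophagy genes from untreated A2780 (log2 difference ± SE from limma, n = 2 arrays in each group), in A2780CP20, on the arrays labelled 24 h and at 48 h; filled points have an adjusted p under 0.05. Filled points are 16 in the first panel, 29 in the second and 0 in the third, where every point lies between -0.28 and 0.45.

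None of the transcription factor genes was called in any comparison. TFEB read 6.65 and 6.46 in untreated A2780, 6.76 and 6.64 in A2780CP20, 6.35 and 6.39 on the arrays labelled 24 h, and 6.47 and 6.20 at 48 h. The treated arrays were the lower ones, but those at 48 h overlapped the untreated pair. Against untreated A2780 its difference was -0.19 ± 0.12 (SE) at 24 h and -0.22 ± 0.12 at 48 h, the latter with a 95% interval from -0.49 to 0.05. TFE3, its close relative, was nearly level, at 8.10 on both untreated arrays, 8.01 on both A2780CP20 arrays, 8.03 and 8.05 at 24 h, and 7.96 and 7.93 at 48 h. The 48 h pair was the lowest, with a difference of -0.16 ± 0.08 (adjusted p = 0.541). MITF, the family member known best from pigment cells, varied most between replicates, reading 5.90 and 5.41 in untreated A2780 and between 5.50 and 5.78 on the other arrays. Its 3 differences from untreated A2780 ran from -0.11 to 0.07.

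In A2780CP20, 12 of the 22 autophagy genes (54.5%) fell and 1 rose, with a median change of -0.33. Of the 26 lysosomal genes, 2 fell and 1 rose, with a median of -0.04. The difference between these counts was not tested. Among all genes, 12% fell and 6.37% rose. Of the 4121 genes with a mean level between 8.22 and 9.77, 21.5% fell and 10.9% rose. Among pathway genes outside the 51, 8 of 25 lysosomal hydrolases and cofactors (32%), 4 of 13 lysosomal membrane proteins (30.8%) and 7 of 26 other autophagy genes (26.9%) were lower, shares that lie close together. The counts also depend on the fit. Under quantile normalization 9 autophagy genes fell and 1 rose, and with each array centred on its median 10 fell and 1 rose. When only the arrays of A2780 and A2780CP20 were fitted, 4 autophagy genes fell and none rose. The total fell from 16 called genes to 5 in that fit, to 8 without the arrays labelled 24 h, and to 5 or 4 without untreated A2780 array 1 or 2. The calls of LAMP2, NBR1, RB1CC1 and ATG14 were kept in each of 14 other settings, and that of WIPI2 in 13. The other 11 calls were kept in 4 to 11 of the 14.

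Autophagy begins with a kinase complex in which ULK1 or ULK2 is held by the scaffold FIP200, the product of RB1CC1. RB1CC1 read 9.33 and 9.39 in untreated A2780 and 8.60 and 8.61 in A2780CP20. The groups were well separated, and the gene fell by 0.76 ± 0.10 on the log2 scale (1.69-fold, adjusted p = 0.00288). ULK2, at 7.78 and 7.83 in the parent line, read 7.17 and 7.35 in the subline, a fall of 0.54 ± 0.13. ULK1 differed from it: its values of 8.04 and 7.92 in A2780 enclosed the 8.02 read on both A2780CP20 arrays, with a difference of 0.04 ± 0.09 and an interval from -0.17 to 0.25.

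The PI3K complex makes the lipid that marks the forming membrane. ATG14, the subunit that directs the complex to autophagy, read 8.82 and 8.68 in A2780 and 7.99 and 8.06 in A2780CP20. That is a fall of 0.72 ± 0.10 (1.65-fold, adjusted p = 0.00345), and its 2 groups did not overlap. UVRAG, which replaces ATG14 in a second form of the complex, read 9.48 and 9.47 against 9.12 and 9.18, a change of -0.33 ± 0.08 (adjusted p = 0.0314). BECN1, the shared core subunit, was not called, reading 8.76 and 8.73 against 8.62 and 8.34 with a difference of -0.27 ± 0.11 (adjusted p = 0.143).

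WIPI1 and WIPI2 bind that lipid and recruit the conjugation machinery, and both fell. WIPI2 read 9.50 and 9.53 in A2780 and 8.99 and 8.96 in A2780CP20, a change of -0.54 ± 0.09 (adjusted p = 0.0063). WIPI1 went from 8.79 and 8.94 to 8.41 and 8.46, a change of -0.43 ± 0.10. ATG2A, a lipid transfer protein that feeds the growing membrane, went the other way, from 7.59 and 7.51 to 7.93 and 7.87 (0.35 ± 0.09, adjusted p = 0.0267). It was the sole autophagy gene called higher. Its relative in membrane supply, ATG9A, overlapped between the lines.

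Conjugation attaches ATG8 proteins to the membrane through the enzymes ATG7 and ATG3 and the ATG12, ATG5 and ATG16L1 complex. ATG5 fell, from 9.51 and 9.53 to 9.16 and 9.05 (-0.41 ± 0.09, adjusted p = 0.0153), and so did ATG7, by 0.32 ± 0.09. ATG3 and ATG16L1 overlapped between the lines, with differences of 0.00 and -0.02. ATG12 and ATG4A were not called, and their A2780CP20 arrays disagreed, at 8.14 and 8.89 for ATG12 and at 6.13 and 6.71 for ATG4A.

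Among the ATG8 proteins themselves, GABARAPL1 read 7.01 and 6.95 in A2780 and 6.60 and 6.62 in A2780CP20, and GABARAPL2 read 10.80 and 10.88 against 10.58 and 10.36. Both were called, each at -0.37, with adjusted p of 0.0479 and 0.0383, close to the threshold. MAP1LC3B, which encodes the widely used autophagosome marker LC3B, read 7.87 and 8.05 against 7.54 and 7.73. Its difference of -0.32 ± 0.11 missed the threshold (adjusted p = 0.0673) and passed it when the dimmest 25% of genes were left out (adjusted p = 0.0455). Cargo receptors tie ubiquitin-tagged material to ATG8 proteins, and NBR1 had the largest fall among autophagy genes. It read 9.38 and 9.43 in A2780 and 8.34 and 8.55 in A2780CP20, a change of -0.96 ± 0.10 (1.95-fold, adjusted p = 0.00176). OPTN fell by 0.34 ± 0.10, from 7.60 and 7.42 to 7.15 and 7.19 (adjusted p = 0.0417), and kept its call in 6 of 14 other settings. SQSTM1, the receptor p62, was not called, at 9.58 and 9.62 against 9.50 and 9.32 (-0.19 ± 0.10).

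Of the lysosomal genes, LAMP2, which encodes a main glycoprotein of the lysosomal membrane that also serves in selective uptake of proteins, changed most in A2780CP20. It read 9.90 and 10.01 in A2780 and 8.84 and 9.04 in the subline, a fall of 1.01 ± 0.10 (2.02-fold, adjusted p = 0.00145). Its partner LAMP1 showed no such difference, with 10.44 and 10.42 inside the range of 10.50 and 10.32 and an interval from -0.24 to 0.20. GAA, the glycogen-degrading glucosidase, rose from 7.61 and 7.73 to 8.03 and 8.04 (0.37 ± 0.09, adjusted p = 0.0288). None of the 7 cathepsin genes was called, and their differences ran from -0.33 for CTSL to 0.22 for CTSA. One V-ATPase gene, ATP6V1B2, was called lower at -0.32 ± 0.09 (adjusted p = 0.049), and the call was kept in 4 of 14 other settings. ATP6V0A1 had the widest gap between replicates of all 51 genes, at 9.24 and 10.19 on the A2780CP20 arrays.

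On the arrays labelled 24 h, lysosomal genes of the same class went in opposite directions. Of the 26, 12 (46.2%) were higher and 6 (23.1%) lower than in untreated A2780, beside 14.9% and 15.3% of all genes. Of the 4121 genes with a mean level between 8.22 and 9.77, 21.1% were higher and 25.3% lower. The median difference of the 26 was 0.13. Without array 1 or 2 of the 24 h label 7 or 6 were higher, without untreated array 1 or 2 it was 7 or 8, and each time 5 were lower. Cathepsins, the proteases of the lysosome, gave 4 higher and 2 lower of 7. CTSZ, a carboxypeptidase, read 6.44 and 6.42 in untreated A2780 and 8.10 and 8.25 on the arrays labelled 24 h, higher by 1.74 ± 0.13 (3.35-fold, adjusted p = 1.52e-05). CTSH, an aminopeptidase, rose from 6.24 and 6.43 to 7.35 and 7.31 (1.00 ± 0.11). CTSF, a cysteine protease, had the largest difference downwards of the 51 genes, from 9.46 and 9.48 to 7.92 on both arrays (-1.55 ± 0.09, 2.93-fold, adjusted p = 3.31e-06). CTSB, another cysteine protease, read 9.87 and 9.91 against 9.22 on both arrays, a fall of 0.67 ± 0.09. The 2 groups were apart in each of these genes by far more than the arrays of a group differed.

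The remaining cathepsin differences were smaller. CTSD, the main aspartic protease, read 10.24 and 10.18 against 10.66 and 10.67 (0.45 ± 0.10, adjusted p = 0.00687). CTSA, which also protects other lysosomal enzymes, read 10.52 and 10.53 against 10.97 and 11.03 (0.48 ± 0.09). CTSL was not called, at 0.30 ± 0.13.

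Glycosidases, which trim sugars from lipids and proteins, gave 1 higher and 2 lower of 8, and 1 lower whenever an array of either group was left out. GLA, whose loss causes Fabry disease, read 8.53 and 8.62 in untreated A2780 and 10.29 and 10.33 on the arrays labelled 24 h, a rise of 1.74 ± 0.09 (3.33-fold, adjusted p = 1.62e-06). HEXA, whose loss causes Tay-Sachs disease, fell from 9.33 and 9.47 to 8.51 and 8.49 (-0.90 ± 0.12), and the galactosidase gene GLB1 from 10.16 and 10.25 to 9.83 and 9.87 (-0.36 ± 0.10, adjusted p = 0.0226). The other 5 (GBA2, GAA, GUSB, NEU1 and NAGLU) were not called and differed by -0.29 to -0.09. GAA, the gene called higher in A2780CP20, read 7.46 and 7.58 here.

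Both LAMP genes fell on these arrays. LAMP1 read 9.57 and 9.67 against 10.44 and 10.42 (-0.81 ± 0.10, adjusted p = 0.000342), and LAMP2 read 9.46 and 9.39 against 9.90 and 10.01 (-0.53 ± 0.10). LAMP1 lies on chromosome 13, where the 183 genes with a mean above the array median had a median difference of -0.42, with 95 lower and 26 higher, against -0.01 over all such genes. LAMP2, GLA, ATG4A, TFE3 and ATP6AP1 lie on chromosome X, whose median was 0.02. The part of the chromosome 13 shift in the LAMP1 value was not tested. MCOLN1, the calcium channel through which lysosomes signal, was called higher at 0.33 ± 0.11 (adjusted p = 0.0496), at the edge of the threshold, and kept that call in 6 of 13 other settings.

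**Figure D2:**
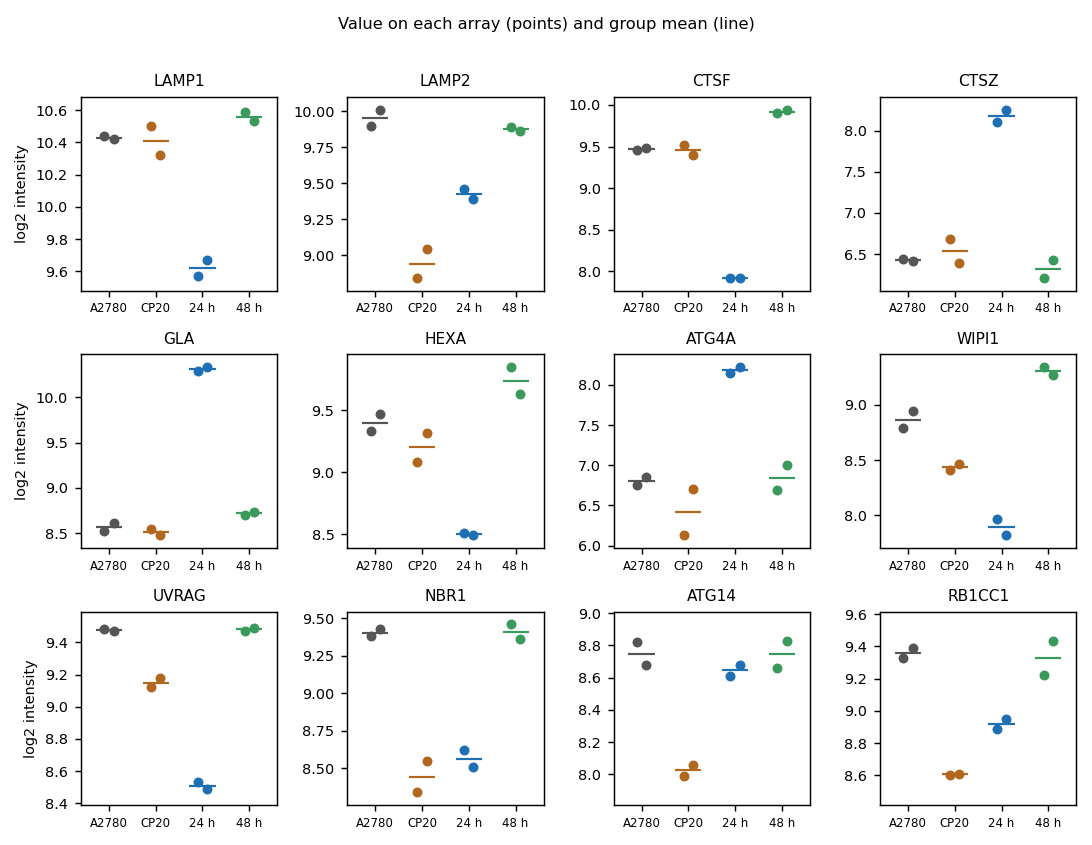
Log2 intensity on each array (points) and group mean (line) for 12 lysosome and autophagy genes with large differences, in untreated A2780, A2780CP20, and A2780 labelled 24 h and 48 h with temsirolimus; each panel has its own axis, which does not start at 0. CTSZ, GLA and ATG4A are highest and CTSF, HEXA, WIPI1 and UVRAG lowest on the arrays labelled 24 h, while LAMP2, ATG14 and RB1CC1 are lowest in A2780CP20.

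Of the 8 V-ATPase genes, 6 were higher on the arrays labelled 24 h and none lower. Under quantile normalization 5 were higher and 1, ATP6V1C1, lower, and with only the 2 groups fitted 6 were higher and 1 lower. The count rests on all 4 arrays: 2 were called without array 1 of the 24 h label, 1 (ATP6V1B2) without its array 2, and 2 and 3 without untreated array 1 and 2. The median difference stayed between 0.39 and 0.49 in these settings. Among all genes, 14.9% were higher and 15.3% lower. Of those with a mean level between 8.22 and 9.77, 21.1% were higher and 25.3% lower, and most of the 8 lie above that range. ATP6V1B2, a subunit of the ATP-splitting head, read 10.91 on both untreated arrays and 11.52 and 11.54 on those labelled 24 h, a rise of 0.62 ± 0.09 (1.54-fold, adjusted p = 0.0012). ATP6V1A, the catalytic subunit of that head, rose from 10.63 and 10.66 to 11.08 on both arrays (0.43 ± 0.09). ATP6V1H, a regulatory subunit, went from 9.20 and 9.07 to 9.56 and 9.61 (0.45 ± 0.09).

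In the part of the pump that sits in the membrane, ATP6V0A1 read 9.53 and 9.57 against 10.44 and 10.32 (0.83 ± 0.25, adjusted p = 0.0354), with the large error set by the A2780CP20 arrays. ATP6V0E1 read 10.70 and 10.93 against 11.29 and 11.26 (0.46 ± 0.13), and ATP6V0D1 read 9.96 and 10.00 against 10.36 and 10.42 (0.41 ± 0.10). The accessory subunit gene ATP6AP1 hardly moved, at -0.04 ± 0.09, with an interval from -0.25 to 0.16. Of 9 further V-ATPase genes outside the 51, 3 were higher and none lower: ATP6V1D by 1.30 ± 0.11, ATP6V0E2 by 0.66 ± 0.11 and ATP6V0B by 0.58 ± 0.11. Together that is 9 of 17 genes (52.9%) higher, beside 14.9% of all genes, with a median of 0.41.

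**Figure D3:**
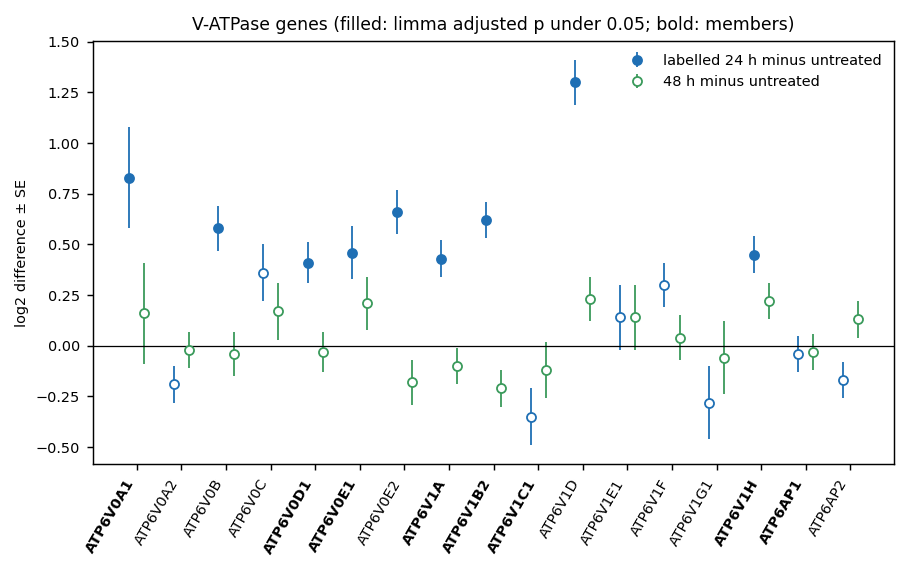
Difference from untreated A2780 (log2 ± SE from limma, n = 2 arrays in each group) for 17 V-ATPase genes on the arrays labelled 24 h (blue) and at 48 h (green); filled points have an adjusted p under 0.05, and bold names are the 8 genes among the 51. In blue, 9 points are filled and all of them lie above 0; no green point is filled.

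Autophagy genes on the arrays labelled 24 h gave 5 higher (22.7%) and 6 lower (27.3%) of 22, beside 14.9% and 15.3% of all genes. Of the 4121 genes with a mean level between 8.22 and 9.77, 21.1% were higher and 25.3% lower, close to the autophagy shares. The median of the autophagy genes was -0.09. The higher count was 3 without array 1 of the 24 h label or without untreated array 1. In the kinase complex 2 of 3 fell, in the PI3K complex 1 of 3 and among the membrane suppliers 2 of 4, and none of these 10 rose. UVRAG, a partner of BECN1, read 9.48 and 9.47 in untreated A2780 and 8.53 and 8.49 on the arrays labelled 24 h (-0.97 ± 0.08, 1.95-fold, adjusted p = 5.25e-05). WIPI1 read 8.79 and 8.94 against 7.97 and 7.82 (-0.97 ± 0.10), and WIPI2 read 9.50 and 9.53 against 8.72 and 8.65 (-0.83 ± 0.09). ULK2 went from 7.78 and 7.83 to 7.23 and 6.87 (-0.75 ± 0.13), and RB1CC1 from 9.33 and 9.39 to 8.89 and 8.95 (-0.44 ± 0.10). The sixth gene that fell was the cargo receptor NBR1, at 8.62 and 8.51 against 9.38 and 9.43 (-0.84 ± 0.10). ULK1, with 7.77 and 7.68 against 8.04 and 7.92, lay below the untreated arrays without passing the test (-0.25 ± 0.09, adjusted p = 0.0673).

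Among the 51, the autophagy genes that rose belong to conjugation, the ATG8 family and the cargo receptors. This split by class was not tested. Of 26 other autophagy genes outside the 51, 3 (11.5%) were higher and 4 (15.4%) lower. ATG101 was among the higher ones (0.65 ± 0.19, adjusted p = 0.0327) and ATG10 among the lower ones (-0.68 ± 0.13, adjusted p = 0.00403). ATG4A, a protease that prepares ATG8 proteins, read 6.75 and 6.85 in untreated A2780 and 8.15 and 8.22 on the arrays labelled 24 h (1.39 ± 0.18, 2.61-fold, adjusted p = 0.000555). ATG16L1, which places the conjugation complex on the membrane, rose from 8.36 and 8.43 to 8.88 and 8.89 (0.49 ± 0.09). ATG3, the enzyme that transfers ATG8 proteins to their lipid, rose by 0.36 ± 0.10. GABARAPL1 went from 7.01 and 6.95 to 7.54 and 7.63 (0.60 ± 0.11), whereas MAP1LC3B, at 7.81 and 7.77 against 7.87 and 8.05, was not called (-0.17 ± 0.11). SQSTM1 read 10.12 and 9.98 against 9.58 and 9.62 (0.45 ± 0.10, adjusted p = 0.00912). BECN1 was above its untreated values of 8.76 and 8.73, at 8.92 and 9.04, without a call (0.23 ± 0.11, adjusted p = 0.164). Of the 29 calls among the 51 genes on these arrays, 19 were kept in each of 13 other settings.

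**Figure D4:**
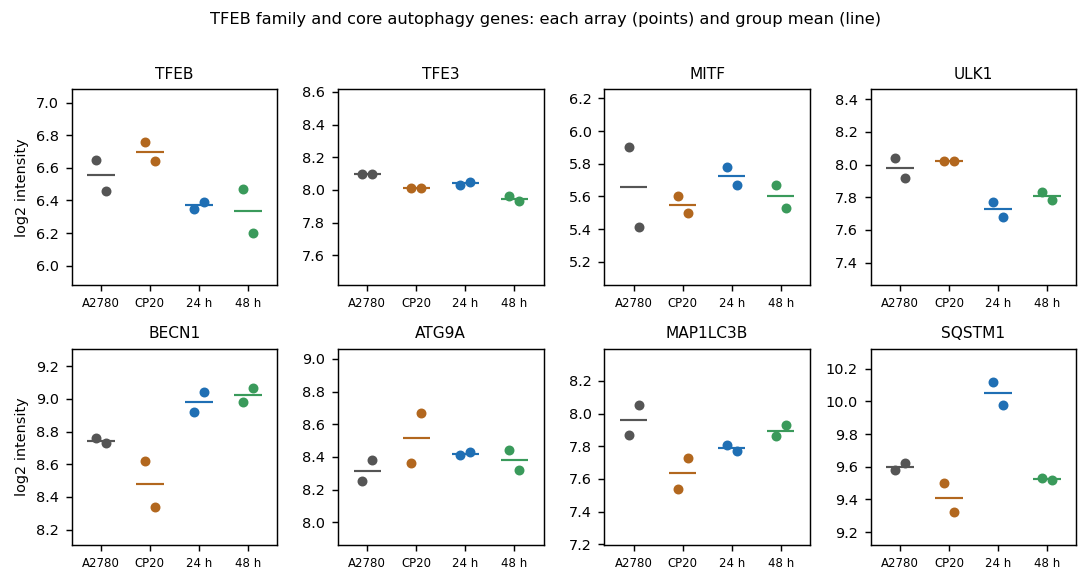
Log2 intensity on each array (points) and group mean (line) for the TFEB family genes and 5 core autophagy genes in untreated A2780, A2780CP20, and A2780 labelled 24 h and 48 h with temsirolimus; each panel has its own axis, which does not start at 0. Points of the 4 groups lie within 0.5 of each other for TFE3 and ULK1, and SQSTM1 is highest on the arrays labelled 24 h.

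At 48 h of temsirolimus no lysosome or autophagy gene was called. With an unadjusted p under 0.05 there were 8 of 51, beside 2043 of 18417 genes, of which 33 were called. The 4 with the smallest p are given with their intervals. CTSF read 9.90 and 9.94 against 9.46 and 9.48 in untreated A2780, a difference of 0.45 with a 95% interval from 0.25 to 0.65 (adjusted p = 0.135). WIPI1 read 9.34 and 9.27 against 8.79 and 8.94, a difference of 0.44 with an interval from 0.21 to 0.67 (adjusted p = 0.175). Both lay above every untreated array. CTSB was below its untreated values, at 9.62 and 9.60 against 9.87 and 9.91 (-0.28, interval -0.48 to -0.08, adjusted p = 0.313). HEXA was above, at 9.85 and 9.63 against 9.33 and 9.47 (0.34, interval 0.07 to 0.61, adjusted p = 0.36).

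The genes most often read as gauges of this pathway differed little at 48 h. LAMP1 read 10.59 and 10.53 (0.13, interval -0.09 to 0.35), SQSTM1 read 9.53 and 9.52 (-0.08, interval -0.30 to 0.15), and MAP1LC3B read 7.86 and 7.93 (-0.07, interval -0.31 to 0.18). For ULK1 the arrays gave 7.83 and 7.78, below both untreated values (-0.17, interval -0.38 to 0.03), and for BECN1 8.98 and 9.07, above both (0.28, interval 0.02 to 0.54, adjusted p = 0.426). These intervals hold, for each gene, the size of change that 2 arrays per group left possible; they do not show that the RNA was unaffected. The V-ATPase genes spanned -0.21 to 0.22, with 3 of 8 above 0. Without the arrays labelled 24 h in the fit, the count called at 48 h was again 0.

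A direct comparison of 48 h with the arrays labelled 24 h called 26 of the 51 genes, 13 higher and 13 lower at 48 h. Among all genes, 31.0% were called (15.2% higher, 15.7% lower), and the share of the 51 was 51%. Of the 4121 genes with a mean level between 8.22 and 9.77, 45.8% were called. For the 25 lysosome and autophagy genes in that range the share was 52%. Median differences were 0.02 for the 51 and -0.05 over all genes. This comparison shares the 24 h arrays with the comparison above, and the values of both are given side by side. CTSF went from 7.92 on both arrays labelled 24 h to 9.90 and 9.94 at 48 h (2.0 ± 0.09, 4-fold, adjusted p = 6.80e-07), and WIPI1 from 7.97 and 7.82 to 9.34 and 9.27 (1.41 ± 0.10). HEXA was higher at 48 h by 1.24 ± 0.12, UVRAG by 0.97 ± 0.08 and LAMP1 by 0.94 ± 0.10. CTSZ was lower by 1.85 ± 0.13, with 8.10 and 8.25 against 6.21 and 6.43, and GLA lower by 1.59 ± 0.09, with 10.29 and 10.33 against 8.70 and 8.74. ATG4A, at 6.69 and 7.0 against 8.15 and 8.22, differed by -1.34 ± 0.18. In each of these genes the 48 h arrays lay nearer to untreated A2780 than to the arrays labelled 24 h.

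Other genes of the pathway, 91 outside the 51 and listed for their known roles, were counted in the same fit. In A2780CP20, 3 were higher and 26 lower (31.9% called, beside 18.4% over all genes). Of genes with a mean level between 8.22 and 9.77, 32.4% were called. The sharpest fall there was in SLC38A9, the lysosomal amino acid sensor of mTORC1 (-1.33 ± 0.14, 2.52-fold, adjusted p = 0.00155). HGSNAT, an enzyme of heparan sulfate breakdown, fell by 1.09 ± 0.15, the cargo receptor gene TAX1BP1 by 1.00 ± 0.09, and PIK3C3, the lipid kinase that ATG14 and UVRAG serve, by 0.90 ± 0.18. The A2780CP20 arrays of PIK3C3 disagreed, at 7.76 and 8.40. SLC17A5, a sialic acid exporter, fell by 0.82 ± 0.09 and RRAGB, a GTPase that brings mTORC1 to the lysosome, by 0.74 ± 0.09.

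On the arrays labelled 24 h, 16 of the 91 were higher and 15 lower, a called share of 34.1% that is near the 30.1% over all genes. GALC, a galactosidase of myelin lipids, read 9.27 and 9.43 there against 5.28 and 5.63 in untreated A2780 (adjusted p = 8.47e-07). The untreated values lie close to the lower quartile of the arrays, so no fold is given. RRAGD rose by 0.82 ± 0.13 and the transport adaptor gene FYCO1 by 0.81 ± 0.11, while HGSNAT fell by 1.27 ± 0.15, the lipase gene LIPA by 1.12 ± 0.09 and RPTOR, which encodes the defining subunit of mTORC1, by 0.72 ± 0.09. At 48 h none of the 91 was called, with 9 at an unadjusted p under 0.05. Between 48 h and the arrays labelled 24 h, 22 were higher and 13 lower at 48 h (38.5% called, beside 31.0% over all genes). Of genes with a mean level between 8.22 and 9.77, 45.8% were called in that comparison, more than among the 91.

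The promoter letters were set beside the calls as a description. CACGTG lay in 5 of the 13 windows of genes higher on the arrays labelled 24 h, in 2 of the 7 of genes lower there, and in 3 of the 20 of genes not called. LAMP1, with 6 copies, and CTSF, with 2, were among the genes that fell, and CTSA, CTSD, ATG3, ATP6V0D1 and MCOLN1 among those that rose. Of the windows of genes lower in A2780CP20, 1 of 10 held the motif, that of ATG14, and of those of genes not called there, 8 of 28.

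Across the 4 groups the range of group means set the genes apart from one another. It was widest for CTSF (2.0), CTSZ (1.86), GLA (1.79), ATG4A (1.77) and WIPI1 (1.41), and narrowest for ATP6AP1 (0.12), TFE3 (0.15) and MITF (0.17). In all, 15 of the 51 genes were called in no comparison, 10 in 1, 17 in 2 and 9 in 3. The 15 were TFEB, TFE3, MITF, CTSL, GBA2, GUSB, NEU1, NAGLU, ATP6V1C1, ATP6AP1, MAP1LC3B, ULK1, BECN1, ATG9A and ATG12. No group mean of any of the 51 lay below the array's lower quartile.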

How the data were processed

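Total RNA from 8 samples was hybridized to Affymetrix Human Gene 1.0 ST arrays, 1 sample per array, per the labels' protocols. The authors deposited 1 table of 33297 probe sets with values from 1.8 to 14.99. These deposited values were taken as log2 intensities from their range and from array medians of 6.66 to 6.72; no source used here states the log base, background correction, normalization or probe summary. The submitters' processing notes list Partek, without a version.

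Probe sets were named through the platform annotation: 19460 had 1 gene symbol, 1754 had several and were left out, and 12083 were unnamed here. For 769 genes with over 1 probe set, the one with the highest mean was kept, giving 18417 genes. NEU1 had 3 probe sets.

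All 8 arrays entered 1 linear model, a mean for each group, in limma 3.58.1 in R 4.3.3 (residual degrees of freedom 4, prior 4.48, two-sided tests, Benjamini-Hochberg adjustment over all genes, called at adjusted p under 0.05). The script was tested on simulated data. The number of arrays limits the precision. Alternatives were quantile normalization, median centring, a filter on the dimmest 25% of genes, averaged probe sets, a replicate block, only the groups compared, the fit without the arrays labelled 24 h, a trended or robust prior, every probe set, and leaving out each array in turn. The same-numbered arrays' deviations correlated at 0 to 0.18 between groups, which does not pair them.

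Named with values on every array were TFEB, TFE3, MITF, LAMP1, SQSTM1, MAP1LC3B, ULK1 and BECN1, and in each comparison the called genes without overlap between arrays, at most 12 per direction, or the 4 with the smallest p where fewer than 3 were called. Other genes are given by range, count or change, and from each pathway list at most 3 called genes per comparison. The 51 genes, the lists and the rules were chosen with earlier results of these data known. The level range and the chromosome medians were added after the counts were seen. Some genes of the pathway and marker lists are not reported here. Means of 5 endothelial and 4 melanocyte markers were 5.14 to 5.39 and 5.16 to 5.57 over the arrays. Promoter windows came from RefSeq, GRCh38.p14.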

Additional observations from a re-analysis of the deposited data

Results flagged for a closer look

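For 26 of the 51 genes the change from untreated A2780 differed between the 2 treatment times, by a test of that difference: the limma comparison of 48 h with the arrays labelled 24 h, at an adjusted p under 0.05. That is 51% of them, beside 31.0% of all genes and 45.8% of genes with a mean level between 8.22 and 9.77. All values are log2 differences, 48 h minus 24 h. Among lysosomal enzymes CTSF (2.0), HEXA (1.24), GLB1 (0.62), GAA (0.40) and CTSB (0.39) were higher at 48 h, and CTSZ (-1.85), GLA (-1.59), CTSH (-0.86) and CTSD (-0.40) were lower. The membrane glycoprotein genes LAMP1 (0.94) and LAMP2 (0.45) were higher. Of the 8 V-ATPase genes, 3 were lower, with ATP6V1B2 at -0.83, ATP6V1A at -0.53 and ATP6V0D1 at -0.44. ATP6V0A1, ATP6V0E1, ATP6V1C1, ATP6V1H and ATP6AP1 were not called. In the kinase complex ULK2 (0.72) and RB1CC1 (0.41) were higher and ULK1 was not called. In the PI3K complex UVRAG (0.97) was higher and BECN1 and ATG14 were not called, and among membrane suppliers WIPI1 (1.41) and WIPI2 (0.78) were higher and ATG2A and ATG9A were not called. For conjugation and the ATG8 family, ATG4A (-1.34), ATG16L1 (-0.56), GABARAPL1 (-0.50) and ATG3 (-0.44) were lower. ATG5, ATG7, ATG12, MAP1LC3B and GABARAPL2 were not called. The cargo receptor genes were split, NBR1 (0.84) being higher and SQSTM1 (-0.53) and OPTN (-0.45) lower. GAA and OPTN were the genes among these that had no call against untreated A2780 at either time. On the same arrays labelled 24 h, 5 of 7 fibroblast markers were lower than on every other array, POSTN was higher and COL1A1 was not apart. Of 3 keratin genes, KRT18 was far higher, and the epithelial marker EPCAM was higher too. The part of these differences in the values above was not tested.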

How the results depend on the processing

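With 2 arrays per group, the number of called genes in A2780CP20 depended on the fit. It was 16 of the 51 genes as reported, 5 with only the 2 groups compared, 8 without both arrays labelled 24 h, 7 with every probe set tested, and between 4 and 19 when 1 array was left out (5 and 4 without untreated A2780 array 1 and 2, 12 and 19 without A2780CP20 array 1 and 2). The cause was not tested. Leaving out 1 array gave 20 to 22 calls instead of 29 for the arrays labelled 24 h, 19 to 22 instead of 26 for 48 h against them, and 0 at 48 h throughout. Where an array was left out, the lone array of that group is assumed to vary like the other groups. With the replicate block the counts were 15, 28, 0 and 27, in the order of A2780CP20, 24 h, 48 h and 48 h against 24 h; the numbers do not pair the samples. Quantile normalization gave 12, 29, 0 and 27, and median centring 13, 30, 0 and 28. Over all genes, the calls in A2780CP20 went from 3388 to between 974 and 5543 with an array left out and to 1022 with only the 2 groups, those at 24 h from 5551 to as few as 3621, those at 48 h from 33 to between 4 and 6, and those of 48 h against 24 h from 5702 to as few as 3715; with an intensity trend in the prior, 68 genes were called at 48 h. No named gene changed direction among its called values: over all settings, 1169 single-gene values kept their side of the threshold, 92 lost it and 4 gained it.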
